A study of Homo sapiens with 6 samples.

Results

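The p90 ribosomal S6 kinases (RSK) and the closely related mitogen- and stress-activated kinases (MSK) are encoded by 6 human genes, RPS6KA1 to RPS6KA6, and each of them had a row among the 53719 rows of the gene count table analysed here. The family was selected on measured values of this contrast: RPS6KA3 was among the genes with lower counts after knockdown of alpha satellite RNA, and the other 5 genes were added by name. The values of the 6 genes are given below as a description, without a test. The cells were of H9, an established line of human embryonic stem cells, grown in RSeT, a medium for a naive-like state. They received either a gapmer against alpha satellite RNA (ALR, transcribed from the repeats of human centromeres) or a control gapmer, and RNA was taken at 48 h. A gapmer is an antisense oligonucleotide with a DNA core that recruits RNase H to the RNA it pairs with. Each group had 3 libraries, lettered a, b and c. All came from the same line, and the labels do not say whether they were separate cultures, so every p-value here measures only the spread between these libraries, which may be technical.

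RSK kinases carry 2 kinase domains in a single chain. ERK docks near the C-terminus and phosphorylates the C-terminal kinase domain, and the kinase PDK1 then completes activation of the N-terminal domain, which phosphorylates the substrates. RPS6KA1 encodes RSK1, RPS6KA3 RSK2, RPS6KA2 RSK3 and RPS6KA6 RSK4, whereas RPS6KA5 (MSK1) and RPS6KA4 (MSK2) encode nuclear relatives that both ERK and p38 activate and that phosphorylate histone H3 and CREB. Loss of RPS6KA3 function causes Coffin-Lowry syndrome, an X-linked disorder with intellectual disability and skeletal changes.

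RPS6KA3 (ENSG00000177189.13) lies on the minus strand of chromosome X from 20149911 to 20267519, and RPS6KA6 (ENSG00000072133.10) lies on the same strand of the same chromosome from 84058346 to 84187907. RPS6KA1 (ENSG00000117676.13) spans 26529761 to 26575030 of chromosome 1, and RPS6KA2 (ENSG00000071242.11) spans 166409364 to 166906451 of chromosome 6. RPS6KA4 (ENSG00000162302.12) spans 64359148 to 64372215 of chromosome 11, and RPS6KA5 (ENSG00000100784.11) spans 90847862 to 91060636 of chromosome 14. Positions are those of GENCODE 29 on GRCh38, the assembly that hg38 denotes in the submitters' processing notes.

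Related genes can trade reads where their transcripts are identical, so the coding sequences of the principal GENCODE 29 transcripts were aligned. RPS6KA3 was identical to RPS6KA6 at 73.1% of aligned coding bases, to RPS6KA2 at 69.4% and to RPS6KA1 at 68.9%, and to the MSK genes RPS6KA5 and RPS6KA4 at 52.8% and 46.5%. Its longest uninterrupted identical coding run was 24 bases, shared with RPS6KA6 at coding bases 1288 to 1311 of RPS6KA3 (base 1 is the A of the start codon), and it reads gttggctcctactctgtttgcaag. Over whole transcripts the longest run that RPS6KA3 shared with any of the other 5 genes was 31 bases, with RPS6KA5. The 72 aligned coding bases around the 24-base run, which encode the start of the C-terminal kinase domain, are shown for the RSK genes because they hold the longest coding run that RPS6KA3 shares with another member. Capitals mark bases that differ from RPS6KA3.
RPS6KA3: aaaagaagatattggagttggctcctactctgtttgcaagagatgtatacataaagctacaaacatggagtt
RPS6KA6: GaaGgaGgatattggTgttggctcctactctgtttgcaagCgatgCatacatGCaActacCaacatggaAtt
RPS6KA2: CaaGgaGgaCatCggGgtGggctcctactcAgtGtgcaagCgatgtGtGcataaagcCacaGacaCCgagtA
RPS6KA1: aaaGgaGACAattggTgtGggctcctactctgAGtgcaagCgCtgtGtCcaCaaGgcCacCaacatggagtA
In this stretch 11 of 72 bases differed in RPS6KA6, 17 in RPS6KA2 and 18 in RPS6KA1. The stretch covers coding bases 1272 to 1343 of RPS6KA3, 1284 to 1355 of RPS6KA6, 1251 to 1322 of RPS6KA2 and 1260 to 1331 of RPS6KA1.

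Total counts ran from 25087629 to 36576752 per library. Knockdown library a stood apart, with counts in 29678 rows against 25898 to 26788 in the other libraries, and values without it are given where they matter. Of the markers of pluripotent cells, POU5F1, NANOG, LIN28A and TDGF1 had group means of 99.8 to 1757 CPM (counts per 1000000 of the TMM-scaled total). Of the naive markers, DPPA3, KLF4 and TFCP2L1 had group means of 17.3 to 28.7 CPM, whereas KLF17 had group means of 0.0766 and 0.171 CPM in control and knockdown libraries, and DPPA5 0.999 and 1.12. The primed marker SFRP2 had 75.2 CPM in controls. Summed over each list, the pluripotency markers had 2424 to 2823 CPM after knockdown and 2343 to 2394 in controls. LIN28A made up most of that sum, with group means of 1757 CPM after knockdown and 1541 in controls. In the same order, POU5F1 had 133 and 99.8, NANOG 194 and 181, and TDGF1 549 and 548. The naive markers summed to 66.2 to 73.5 CPM after knockdown and 64.8 to 70.6 in controls, and the primed markers to 207 to 227 and 206 to 215. Markers of other lineages summed to 76.7 to 90.6 CPM after knockdown and 85.4 to 97.2 in controls. Most of that sum was COL1A2, with group means of 67.0 CPM after knockdown and 77.0 in controls. MIXL1 had 13.1 and 11.3 CPM, while SOX17 and CDX2 were near 0. Of the tested genes in these 4 lists, 0 passed the threshold described next; their part in the results was not tested. SOX2 and THY1 were listed at 0 in all 6 libraries, as were the pathway genes RRN3, JUNB, FOSB and DUSP1, and GENCODE 29 places another gene across each of these 6. The part of such overlaps in the zeros was not tested. No annotated gene overlaps RPS6KA3 or RPS6KA6. RPS6KA5 overlaps DGLUCY on the opposite strand, whose row (under the older symbol C14orf159) had 61.6 to 72.3 CPM after knockdown and 59.4 to 64.9 in controls. The annotated genes inside RPS6KA1, RPS6KA2 and RPS6KA4 that have a row were at 0 in all libraries. The level of alpha satellite RNA itself was not analysed here.

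Across the whole table, 155 of 19721 genes tested passed an adjusted p of 0.05 (edgeR quasi-likelihood test, Benjamini-Hochberg), which is 0.786% of genes, with 128 lower (0.649%) and 27 higher (0.137%) in knockdown. The split was 102 lower and 56 higher with library size alone as the scaling, and 112 and 45 with upper-quartile scaling. The count was 102 without knockdown library a, 61 without b and 1309 without c, and 26, 42 and 42 without control libraries a to c. All 6 kinase genes had enough counts to be tested. RPS6KA3 was the 1 member among the 155, and nothing is read from that, since its place there brought the family in. The values of the groups did not overlap in 2 members, RPS6KA3 and RPS6KA5, both lower in knockdown, where 9.37% of all tested genes were lower and 9.55% higher without overlap (18.9% in either direction); nothing is read from this count either.

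RPS6KA3, which encodes RSK2, had 40.2, 41.1 and 39.8 CPM in controls a to c, and 20.0, 21.7 and 22.6 in knockdowns a to c. Each knockdown library was close to the others, and all were well below the lowest control. The counts behind these values were 1142, 1275 and 1445 in control and 567, 725 and 570 in knockdown libraries. Group means were 21.4 ± 1.31 CPM after knockdown and 40.3 ± 0.660 in controls (SD over 3 libraries a group), so that knockdown libraries held 53.1% of the control level. The log2 fold change was -0.91 ± 0.07 (SE; 95% interval -1.07 to -0.75). It was -0.87 without knockdown library a and lay between -0.97 and -0.87 over the fits that left out a library. In bulk RNA, fewer cells with the transcript and less of it per cell cannot be told apart.

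RPS6KA1, which encodes RSK1, the founding member of the family, had 50.7, 51.2 and 45.6 CPM in controls a to c and 47.5, 57.5 and 52.5 in knockdown libraries. The groups overlapped, with the highest value in knockdown library b and the lowest in control library c. Its log2 fold change was 0.10 ± 0.08 (SE; 95% interval -0.08 to 0.27). Leaving out 1 library gave 0.02 (knockdown b), 0.04 (control c) or 0.16 (knockdown a).

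RPS6KA2 encodes RSK3 and drew the most reads of the family, with no allowance for length. It had 90.3, 80.5 and 79.7 CPM in controls a to c and 73.7, 68.7 and 86.3 in knockdown libraries. Knockdown library c lay above control libraries b and c, so the groups overlapped. Its log2 fold change was -0.13 ± 0.09 (SE; 95% interval -0.32 to 0.06), and it was -0.25 without knockdown library c, -0.07 without knockdown library b and -0.06 without control library a.

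RPS6KA6, the other X-linked member, encodes RSK4, a form that differs from the other RSKs in being active in many cells without added growth factor. It had 29.5, 31.0 and 29.3 CPM in controls a to c and 29.6, 28.2 and 27.8 in knockdown libraries. These were the most even values of the family, with a within-group SD of 0.05 on the log2 scale. Its log2 fold change was -0.07 ± 0.07 (SE; 95% interval -0.22 to 0.08).

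RPS6KA5, which encodes MSK1, had 23.7, 23.0 and 23.2 CPM in controls a to c and 16.2, 17.9 and 21.0 in knockdown libraries. The controls were nearly equal and the knockdown libraries were spread out below them, with library a lowest and library c nearest to the controls. Its log2 fold change was -0.35 ± 0.10 (SE; 95% interval -0.56 to -0.14). Leaving out knockdown library a gave -0.27, and leaving out c gave -0.47. Reads from RPS6KA5 and its opposite-strand partner DGLUCY cannot be told apart unless strand was used in counting, which is not given in the sources used here.

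RPS6KA4 encodes MSK2 and drew the fewest reads of the family, with 6.23, 6.73 and 6.41 in controls a to c and 6.38, 8.36 and 8.90 in knockdown libraries. Knockdown library a fell within the control range, while knockdown libraries b and c lay above it. Its counts were 177 to 279 per library, and its log2 fold change of 0.29 ± 0.14 (SE; 95% interval -0.02 to 0.59) was the least precise of the 6. It was 0.41 when knockdown library a was left out and 0.17 when c was.

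**Figure D1:**
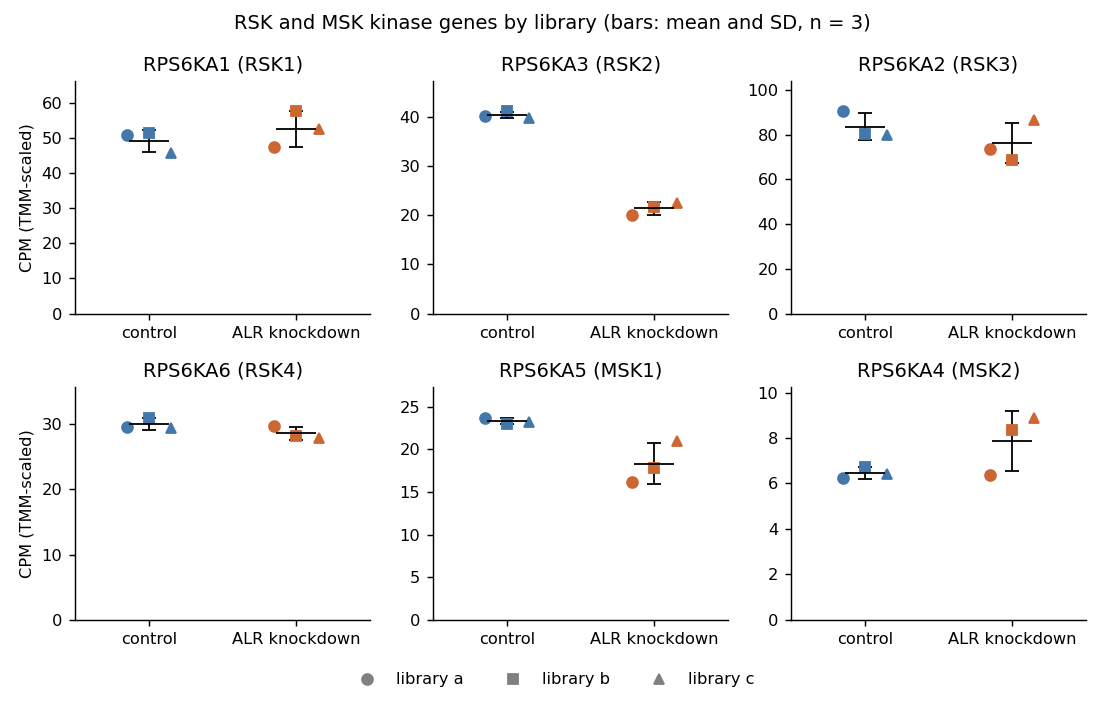
Level of each RSK and MSK gene (TMM-scaled CPM, linear axes from 0) in the control and ALR knockdown libraries, with 1 point per library and bars for mean and SD. The knockdown points of RPS6KA3 sit at 20.0 to 22.6 CPM against 39.8 to 41.1 in control, while the points of RPS6KA1, RPS6KA2, RPS6KA4 and RPS6KA6 overlap between groups.

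The 95% interval of RPS6KA3 lay below those of the other 5 members, whose lowest bound was -0.56 for RPS6KA5. For RPS6KA6, the member closest to it in sequence, the interval reached down to -0.22, and for RPS6KA1 to -0.08. This is a description, since RPS6KA3 was chosen for its difference. The knockdown level was 107% of control for RPS6KA1, 91.3% for RPS6KA2, 95.3% for RPS6KA6, 78.7% for RPS6KA5 and 122% for RPS6KA4.

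The ratio of RPS6KA3 to another member within a library does not depend on scaling. RPS6KA3 counts were 0.792, 0.801 and 0.873 times those of RPS6KA1 in controls a to c, and 0.421, 0.378 and 0.430 times in knockdown libraries. Relative to RPS6KA6 they were 1.36, 1.33 and 1.36 times in control and 0.674, 0.770 and 0.812 times in knockdown libraries, so that RPS6KA3 had more counts than RPS6KA6 in each control library and fewer in each knockdown library. Of the counts of the 4 RSK genes, RPS6KA3 held 19.1, 20.2 and 20.5% in controls a to c and 11.7, 12.3 and 11.9% in knockdowns a to c. The 95% Wilson intervals of these shares spanned 18.1 to 21.4% over the controls and 10.8 to 13.2% over the knockdowns. The lower share follows from the choice of RPS6KA3 for its lower counts, and nothing is read from the separation. The means were 12.0 ± 0.321% and 19.9 ± 0.736% (SD over 3 libraries a group). The Wilson intervals cover counting error within each library and no spread between libraries. They also treat reads as separate molecules, which PCR copies without molecular identifiers are not.

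**Figure D2:**
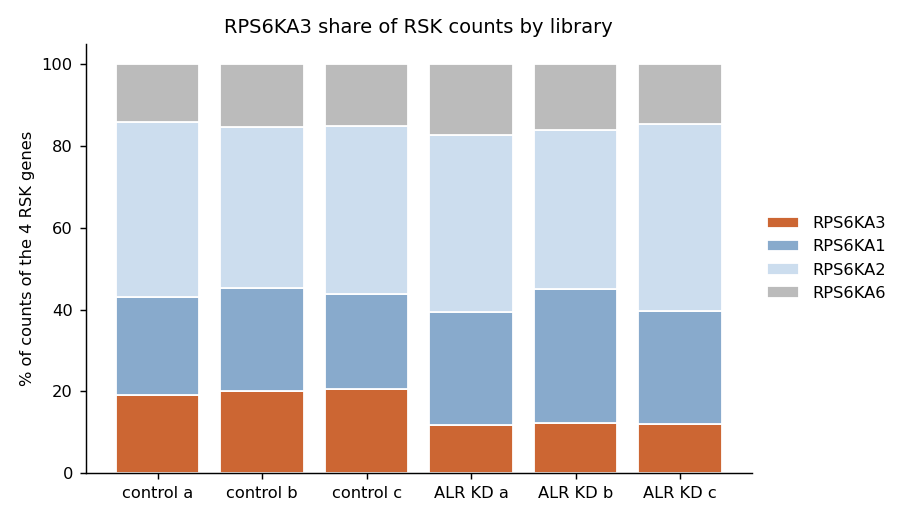
Counts of RPS6KA3, RPS6KA1, RPS6KA2 and RPS6KA6 as a percentage of their sum in each library (stacked bars, 1 per library). The RPS6KA3 segment takes 19.1 to 20.5% in the control libraries and 11.7 to 12.3% in the knockdown libraries.

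The summed level of the 4 RSK genes was 179 ± 9.38 CPM after knockdown and 203 ± 8.22 in controls (SD, n = 3), a difference of -24.2 CPM. Without RPS6KA3 the sums were 157 ± 8.21 and 163 ± 7.99 CPM, a difference of -5.31 that is smaller than the spread between libraries, and the groups overlapped.

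Levels of different genes can be compared only per length, and the order depended on the length used. Per kb of the principal transcript, control levels were 15.4 ± 0.987 CPM per kb for RPS6KA1, 14.3 ± 1.02 for RPS6KA2 and 11.8 ± 0.357 for RPS6KA6 (SD, n = 3). They were 4.97 ± 0.0813 for RPS6KA3, 2.07 ± 0.0818 for RPS6KA4 and 0.870 ± 0.0144 for RPS6KA5. The control values of RPS6KA1 and RPS6KA2 overlapped. In knockdown libraries RPS6KA3, at 2.64 ± 0.162 CPM per kb, differed from RPS6KA4, at 2.53 ± 0.426, by less than the spread. Per kb of all annotated exons merged, the control order was RPS6KA2 (10.1), RPS6KA1 (8.36), RPS6KA3 (4.06), RPS6KA6 (3.52), RPS6KA4 (1.70) and RPS6KA5 (0.833), so RPS6KA3 and RPS6KA6 changed places, as did RPS6KA1 and RPS6KA2. Principal transcripts ran from 2547 bases for RPS6KA6 to 26795 for RPS6KA5, while the coding parts were alike, at 2202 to 2409 bases. RPS6KA3 and RPS6KA6 had the lowest coding GC content of the family, 41.0% and 40.5%, against 57.0% for RPS6KA1, 56.7% for RPS6KA2, 44.2% for RPS6KA5 and 65.9% for RPS6KA4.

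Kinases related to the family were compared next: the p70 S6 kinases, RPS6KC1, RPS6KL1, the SGK and AKT kinases, and the MAPK-activated kinases MAPKAPK2, MAPKAPK3, MAPKAPK5, MKNK1 and MKNK2. Of 15 genes, all tested, 0 passed the threshold (edgeR, adjusted over all genes, background 0.786%), and 1 had an unadjusted p under 0.05, where 14.3% of all tested genes did. That gene was AKT2, with 124 ± 8.18 CPM after knockdown and 110 ± 2.19 in controls (SD, n = 3) and its log2 fold change, 0.17 ± 0.07, had an edgeR adjusted p of 0.267. The p70 S6 kinase RPS6KB1, which phosphorylates the ribosomal protein S6 at sites shared with RSK, had a log2 fold change of -0.07 ± 0.09 and RPS6KB2 one of 0.08 ± 0.14. These 2 were named after their values had been seen. RPS6KC1 was at -0.14 ± 0.07 (edgeR adjusted p = 0.389). The median over the 15 was 0.07, against 0.02 over all genes tested.

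**Figure D3:**
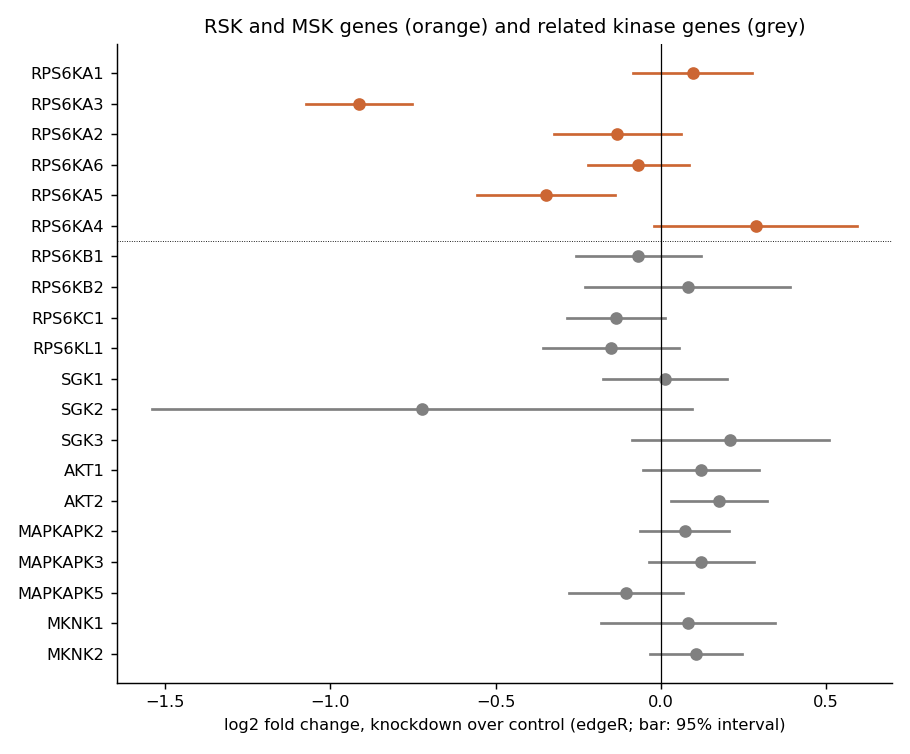
Log2 fold change of knockdown over control (edgeR) with its 95% interval for the 6 RSK and MSK genes (orange) and 14 of the 15 related kinase genes (grey). RPS6KA3, at -0.91, lies apart from the other orange points, and 0 of the grey genes passed the adjusted threshold; the wide interval is that of SGK2, a gene with few counts.

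Upstream of RSK, the ERK module from receptor to kinase held 22 tested genes, of which 0 passed the threshold (edgeR, background 0.786%) and 8 had an unadjusted p under 0.05, where 14.3% of all tested genes did. Their median log2 fold change was -0.05, with 14 below 0 and 8 above. MAP2K2, which encodes an ERK-activating kinase, had 90.3 ± 6.45 CPM after knockdown and 75.8 ± 3.50 in controls (log2 fold change 0.25 ± 0.07; edgeR adjusted p = 0.136). The RAS activator SOS2 was at -0.22 ± 0.07 (edgeR adjusted p = 0.186). FGFR1 and FGFR2, the receptors with the highest CPM in the list, were at 0.01 ± 0.07 and -0.17 ± 0.08. Of the direct activators of RSK, MAPK3 (ERK1) was at 0.20 ± 0.08 and PDPK1 (PDK1) at -0.03 ± 0.07, with edgeR adjusted p of 0.287 and 0.877, and both were named for their role after their values had been seen.

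The p38 module, the second route to MSK1 and MSK2, held 11 tested genes, with 0 past the threshold and a median of -0.09. An unadjusted p under 0.05 was found for 1 (edgeR), against 14.3% of all tested genes. That 1 gene was MAP2K4, a kinase of the stress pathways, at -0.15 ± 0.06 (edgeR adjusted p = 0.288). MAP3K7 was at -0.12 ± 0.07, TAB1 at 0.17 ± 0.08 and TAB2 at -0.03 ± 0.06. In the list of genes that restrain ERK and RSK, 0 of 14 tested genes passed the threshold (edgeR, median 0.06). Before adjustment 4 were under 0.05, where 14.3% of all tested genes were. The ERK phosphatase gene DUSP5 had 12.4 ± 1.57 CPM after knockdown and 9.40 ± 0.371 in controls (0.41 ± 0.11; edgeR adjusted p = 0.136). SPRY4, an inhibitor of receptor signalling, was at 0.25 ± 0.08, RASA1 at -0.17 ± 0.06 and NF1 at -0.01 ± 0.07 (edgeR adjusted p = 0.190, 0.269 and 0.971).

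Downstream, 0 of 34 tested genes for RSK or MSK substrates passed the threshold (edgeR, median log2 fold change 0.03). Of these, 6 had an unadjusted p under 0.05, where 14.3% of all tested genes did. DAPK1, a kinase that RSK inactivates, came nearest, with 184, 193 and 202 CPM in knockdowns a to c and 235, 233 and 235 in control libraries. All knockdown values lay below all controls (log2 fold change -0.28 ± 0.06, edgeR adjusted p = 0.0707), as was so for 9.37% of all tested genes. Of the 34 substrate genes, 4 were lower and 5 higher without overlap, where 9.55% of all tested genes were higher. GSK3B, a kinase inhibited by RSK phosphorylation, had 210 ± 16.2 and 252 ± 4.06 CPM (-0.26 ± 0.07; edgeR adjusted p = 0.115). CREB1, a transcription factor phosphorylated by both RSK2 and the MSKs, was at -0.20 ± 0.07 (edgeR adjusted p = 0.241). The substrates with the highest CPM, the actin crosslinker FLNA and the ribosomal protein gene RPS6, were at 0.20 ± 0.07 and -0.05 ± 0.08 (edgeR adjusted p = 0.252 and 0.824).

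Immediate-early genes, which growth factor signals induce through ERK and its kinases, held 15 tested genes of 19. The threshold was passed by 0 of these (edgeR, median 0.03). The unadjusted p was under 0.05 for 4, where it was so for 14.3% of all tested genes. BTG2, an antiproliferative gene that p53 also induces, had 10.6, 11.2 and 9.93 CPM in knockdowns a to c and 15.1, 16.6 and 12.9 in control libraries (-0.48 ± 0.11; edgeR adjusted p = 0.0779). The AP-1 genes JUN and ATF3 were at -0.28 ± 0.08 and -0.27 ± 0.08 (edgeR adjusted p = 0.157 and 0.173). MCL1 and SRF, those with the highest CPM of the list, were at -0.03 ± 0.07 and 0.03 ± 0.09 (edgeR adjusted p = 0.871 and 0.907).

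Counted once each, the 6 lists held 109 tested genes, of which 0 passed the threshold (edgeR, background 0.786%) and 24 (22%) had an unadjusted p under 0.05, where 14.3% of all tested genes did. Other tools called a few of the 109. DESeq2's Wald test called DAPK1, GSK3B and BTG2, all lower in knockdown, limma-voom called DAPK1, and edgeR with the replicate letter as a block called DAPK1 and BTG2. Without knockdown library c edgeR called 10, 9 lower, among them FGFR2, FRS2, GAB1, BRAF, RASA1, DAPK1, GSK3B and CREB1, and 1 higher, DUSP5. Over all genes, the same fits called 536 (DESeq2), 174 (limma-voom), 393 (block) and 1309 (without library c), against 155 in the main fit. Nothing is read from the calls of these fits. The median log2 fold change over the 109 genes was 0.01 against 0.02 over all genes tested.

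**Figure D4:**
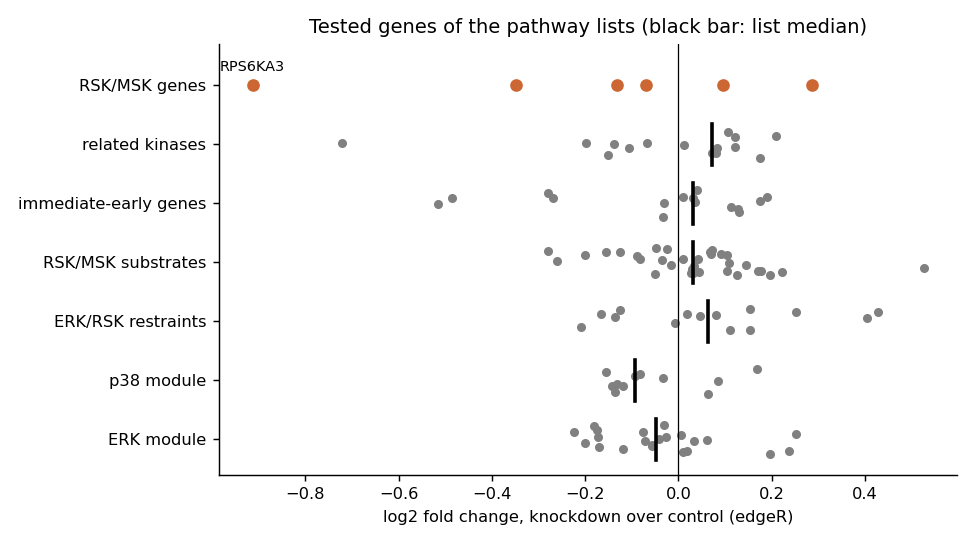
Log2 fold change of knockdown over control (edgeR) for each tested gene of the 6 pathway lists (grey points, vertical jitter only for visibility, black bar the list median) and for the 6 RSK and MSK genes (orange). List medians lie between -0.09 and 0.07, and 0 of the grey genes passed the adjusted threshold.

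The genes around RPS6KA3 on the X chromosome were then examined. Of the 5 nearest tested genes on each side, 0 of 10 passed the threshold (edgeR), which 0.786% of all tested genes and 1.71% of those on chromosome X passed. An unadjusted p under 0.05 was found for 2, against 14.3% of all tested genes, and the median log2 fold change was -0.02. The nearest on either side were EIF1AX, a translation initiation factor gene, at -0.05 ± 0.08, and CNKSR2, a scaffold gene of RAS signalling, at -0.26 ± 0.08 (edgeR adjusted p = 0.818 and 0.178). Relative to the midpoint of RPS6KA3, that of EIF1AX lay at -75.5 kb and that of CNKSR2 at 1305 kb. The farthest on the CNKSR2 side, PHEX, lay at 1933 kb. SMS, which encodes spermine synthase, was at -0.18 ± 0.06 (edgeR adjusted p = 0.208). DESeq2 called SMS, edgeR with no low-count filter called CNKSR2, edgeR without knockdown library c called both, and limma-voom called 0. Over all genes, these fits called 536, 1064, 1309 and 174, in that order, against 155 in the main fit. MAP7D2, SH3KBP1, MAP3K15 and PDHA1 were at 0.11 ± 0.15, 0.02 ± 0.07, 0.08 ± 0.10 and 0.07 ± 0.07. On the other side SMPX was at 0.33 ± 0.33, MBTPS2 at -0.07 ± 0.07 and PHEX at -0.33 ± 0.15.

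**Figure D5:**
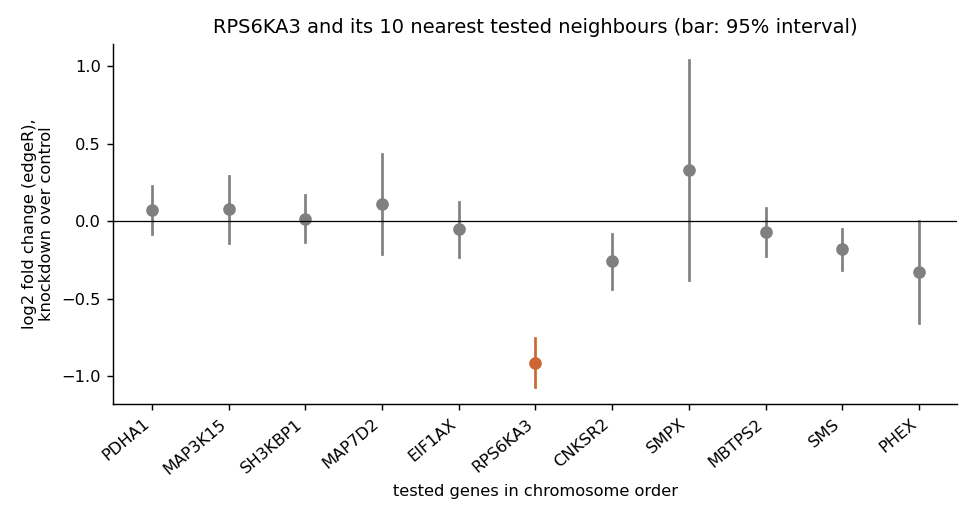
Log2 fold change of knockdown over control (edgeR) with its 95% interval for RPS6KA3 (orange) and the 5 nearest tested genes on each side (grey), in chromosome order and not to distance. RPS6KA3 is at -0.91, while the neighbours lie between -0.33 and 0.33.

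The genes whose levels followed RPS6KA3 most closely over the 6 libraries were ranked by Pearson's r of log2 CPM among 15139 other genes with a mean count of at least 50. They were SLC44A5 (r = 0.996), a choline transporter-like gene, DUSP14 (0.995), a MAPK phosphatase gene, RBPJ (0.995), the DNA-binding factor of Notch signalling, the clone-named row AP002954.4 (0.994) and TRPC6 (0.994), a cation channel gene. Each was lower in all knockdown libraries than in all control libraries, and r, taken over both groups, carries that contrast. RBPJ had 304 ± 5.13 CPM after knockdown and 424 ± 8.79 in controls, and its log2 fold change was -0.48 ± 0.06. SLC44A5 was at -0.53 ± 0.06, TRPC6 at -0.53 ± 0.06 and DUSP14 at -0.29 ± 0.08. Within the family, r with RPS6KA3 was 0.90 for RPS6KA5, 0.62 for RPS6KA6, 0.55 for RPS6KA2, -0.36 for RPS6KA1 and -0.58 for RPS6KA4, over 6 libraries in 2 groups, with each library's depth shared by all its genes.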

How the data were processed

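Total RNA was sequenced from 6 libraries, 3 per group, made with a directional kit per the labels' protocols. Depth is given with the results. The authors deposited raw read counts per gene symbol, unnormalised, with 1 column per library. Trimmomatic 0.39, STAR 2.7.8a, featureCounts, Subread 2.14.2 and hg38 are named in the submitters' processing notes. The annotation, strand setting and handling of reads with several alignments are not given in the sources used here.

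The whole table was fitted with edgeR 4.0.16 (R 4.3.3): filterByExpr, TMM scaling, glmQLFit and glmQLFTest with group as the only term, two-sided, adjusted by the Benjamini-Hochberg method over 19721 genes at 0.05. SE is the log2 fold change divided by the root of the F statistic. CPM used TMM-scaled library sizes, and log2 CPM a prior count of 2. Alternatives used DESeq2 1.42.0, limma 3.58.1 (voom), other scalings and filters, a replicate block and leaving out each library. Coding sequences, aligned with MAFFT, came from principal transcripts of GENCODE 29.

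The members, the gene lists and the rule for named genes were chosen with earlier results of these data known. The rule took, from each list, every gene past the threshold, the smallest 3 p-values and the highest 2 mean CPM values, the 5 neighbours on each side, and the 5 genes most correlated with RPS6KA3. Lists were described by counts and medians, with no set test. Some genes that the rule or the lists take are counted but not reported here by name. CCN1 was read under its older symbol CYR61.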

Additional observations from a re-analysis of the deposited data

How the results depend on the processing

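None of the log2 fold changes of the 6 members changed sign in the 14 alternatives. All moved by less than their spread between libraries, but leaving out 1 of 3 libraries can hardly move a mean by more. Nothing is therefore read from that. RPS6KA1 ran from 0.02 to 0.16, RPS6KA2 from -0.25 to -0.06, RPS6KA4 from 0.17 to 0.41 and RPS6KA6 from -0.10 to -0.04. RPS6KA3 ran from -0.97 to -0.87 and RPS6KA5 from -0.47 to -0.27. RPS6KA5, not past the threshold in the main fit, was past it with no low-count filter and without knockdown library c. With all 6 members as the denominator, the RPS6KA3 share differed by -6.89 percentage points in place of -7.91. The number of genes past the threshold, 155, became 536 with DESeq2's Wald test, 1064 with no low-count filter and 393 with the replicate block, and 26 to 1309 when a library was left out. Between libraries sharing a letter, deviations from the group means had correlations of 1.23e-05, 0.116 and -0.0251 for a, b and c. These weigh every tested gene alike, whatever its counts, so they do not settle whether the letters pair the groups.

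The lists, at 0 genes each, gave with no low-count filter 1 for the ERK module, 1 for the restraints, 2 for the substrates and 2 for the immediate-early genes. DESeq2 gave 2 substrates and 1 immediate-early gene, limma-voom 1 substrate, and the replicate block 1 of each. Leaving out a library gave 0 to 4 genes of the ERK module, 0 to 2 restraints, 0 to 3 substrates and 0 to 1 related kinases, the highest each time without knockdown library c. What caused these changes was not tested.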
